A study of Homo sapiens with 12 samples.

Results

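The anoctamins, also called the TMEM16 family, were followed across RNA sequencing libraries of PANC-1, a human pancreatic carcinoma cell line. The members were taken by gene symbol and number 8 of the 57773 genes in the table: ANO1, ANO4, ANO5, ANO6, ANO7, ANO8, ANO9 and ANO10. The table holds 10 genes named ANO and a number, and ANO2 and ANO3 are not among the members. The family was chosen by the levels of ANO8 and ANO9, which were far lower with chaetocin than in vehicle, so every value of chaetocin against vehicle is given here as a description, with no test. Of the 8 members, 7 passed the expression filter, and ANO4 did not. All cells belonged to this 1 line below passage 30 and were treated for 24 h. The groups held 3 libraries each: chaetocin at 30 nM with MLN8237 at 90 nM, chaetocin alone at 30 nM, MLN8237 alone at 90 nM, and the vehicle DMSO. Chaetocin is a fungal compound known to inhibit the histone methyltransferase SUV39H1 and thioredoxin reductase, and MLN8237 (alisertib) inhibits the mitotic kinase Aurora A. The characteristic of the combination libraries spells MLN8237 with 1 digit changed, while their treatment protocol gives MLN8237.

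Anoctamins are membrane proteins of the endoplasmic reticulum and plasma membrane. Some, such as ANO1, are chloride channels that open when calcium rises in the cell, and others, such as ANO6, are scramblases that move phospholipids between the leaflets of a membrane and so expose phosphatidylserine at the cell surface. ANO1 is known for carrying chloride out of secretory epithelia and is amplified in some carcinomas.

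Summed gene counts ran between 49439795 and 63747510 per library. MLN8237 replicate 3 stood apart on the second principal component, which held 14.6% of the variance, at -82.7 against -32.2 to 34.8 in the other 11 libraries. Of the ductal markers KRT8, KRT18 and KRT19 stood at 68.7 RPKM or above in every library and KRT7 between 0.8 and 1.57 RPKM. The summed RPKM of these 3 keratins, KRT7 and SOX9 was 525 to 587 with both compounds, 604 to 646 with chaetocin, 1110 to 1260 with MLN8237 and 1030 to 1190 in vehicle, and its part in the differences between members was not tested. PTPRC, CD3E, CDH5, PRSS1, CPA1, INS, GCG, DCN and LUM, which mark other cell types, were at most 0.111 RPKM and VWF, CD79A and CELA3A at most 0.421 RPKM, while CD68 (66.7 to 107 RPKM) and COL1A1 (3.25 to 7.54 RPKM) were present. Whether the libraries of a group were grown apart is not stated, so the p-values cover only differences between these libraries and these may be technical. In RNA from whole cultures, fewer expressing cells and less RNA per cell cannot be told apart.

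ANO6 was the leading anoctamin transcript in PANC-1 cells. On the deposited RPKM scale, which divides by gene length, its level was 19 ± 2.95 with both compounds, 18.7 ± 2.99 with chaetocin, 15.8 ± 4.56 with MLN8237 and 19.8 ± 1.3 in vehicle (mean ± SD, n = 3 in each group). In vehicle the order ran on with ANO9 at 4.16 ± 0.38 RPKM and ANO10 at 3.82 ± 0.137 RPKM, which overlapped between libraries, and then ANO8 at 1.96 ± 0.18 RPKM. ANO7 followed at 0.831 ± 0.096 RPKM, ANO5 at 0.687 ± 0.0432 RPKM and ANO1 at 0.194 ± 0.0225 RPKM, with no overlap between neighbours in this order. ANO4 came last at 0.0112 ± 0.00757 RPKM. The order was another with chaetocin in the medium. ANO9 reached 0.802 ± 0.0697 RPKM with both compounds and 0.804 ± 0.104 RPKM with chaetocin, below ANO10 at 3.89 ± 0.254 RPKM with both compounds and 3.71 ± 0.14 RPKM with chaetocin. ANO8 reached 0.324 ± 0.0397 RPKM with both compounds and 0.351 ± 0.0577 RPKM with chaetocin, below ANO7 at 0.485 ± 0.0419 RPKM with both and 0.52 ± 0.0674 RPKM with chaetocin. ANO6 made up 75.6% ± 2.94 of the summed RPKM of the 8 members with both compounds and 75.6% ± 2.27 with chaetocin. This compares with 57.9% ± 4.32 with MLN8237 and 62.9% ± 1.44 in vehicle. The sum holds ANO8 and ANO9, so the share of ANO6 is not independent of the choice of the family.

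**Figure D1:**
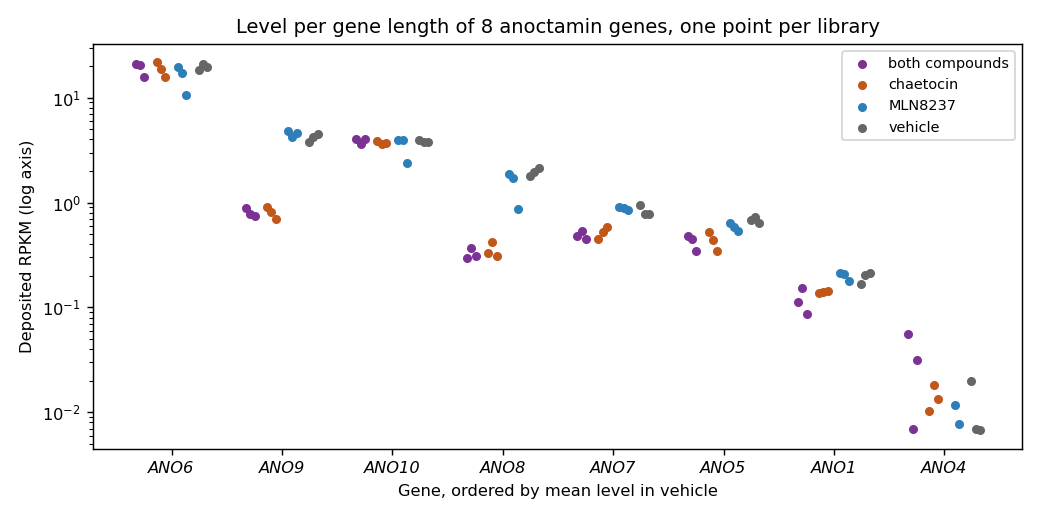
Deposited RPKM (log axis) of the 8 anoctamin genes, ordered by their mean in vehicle, with 1 point per library and colours for both compounds, chaetocin, MLN8237 and vehicle. ANO6 lies between 10.6 and 21.7 RPKM in all 12 libraries, while the 6 libraries with chaetocin lie below the other 6 for ANO9 and ANO8; MLN8237 replicate 1, where ANO4 had 0 counts, is not drawn for that gene.

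ANO9 and ANO8 were several fold lower in all 6 libraries that had received chaetocin. ANO9 (ENSG00000185101, hg19 chromosome 11, 417933 to 442011) encodes an anoctamin for which scramblase and cation channel activity has been described. It stood at 5.21, 4.86 and 4.51 CPM (counts scaled to a common library total by TMM) with both compounds, at 5.62, 5.12 and 4.43 CPM with chaetocin, at 31.2, 27.7 and 32.4 CPM with MLN8237, and at 24.5, 27.4 and 29.8 CPM in vehicle. The libraries with chaetocin, at 4.43 to 5.62 CPM, did not reach the others, at 24.5 to 32.4 CPM. ANO8 (ENSG00000074855, hg19 chromosome 19, 17434032 to 17445638), which encodes a protein that tethers the endoplasmic reticulum to the plasma membrane, stood at 1.4, 1.84 and 1.5 CPM with both compounds, at 1.65, 2.09 and 1.58 CPM with chaetocin, at 9.74, 9.03 and 4.94 CPM with MLN8237, and at 9.35, 10.1 and 11.4 CPM in vehicle. Here too the 2 sets of libraries did not overlap, and the lowest library without chaetocin was MLN8237 replicate 3. Of all genes tested, 14.1% were lower in each of the 6 libraries with chaetocin than in each of the 6 without it.

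**Figure D2:**
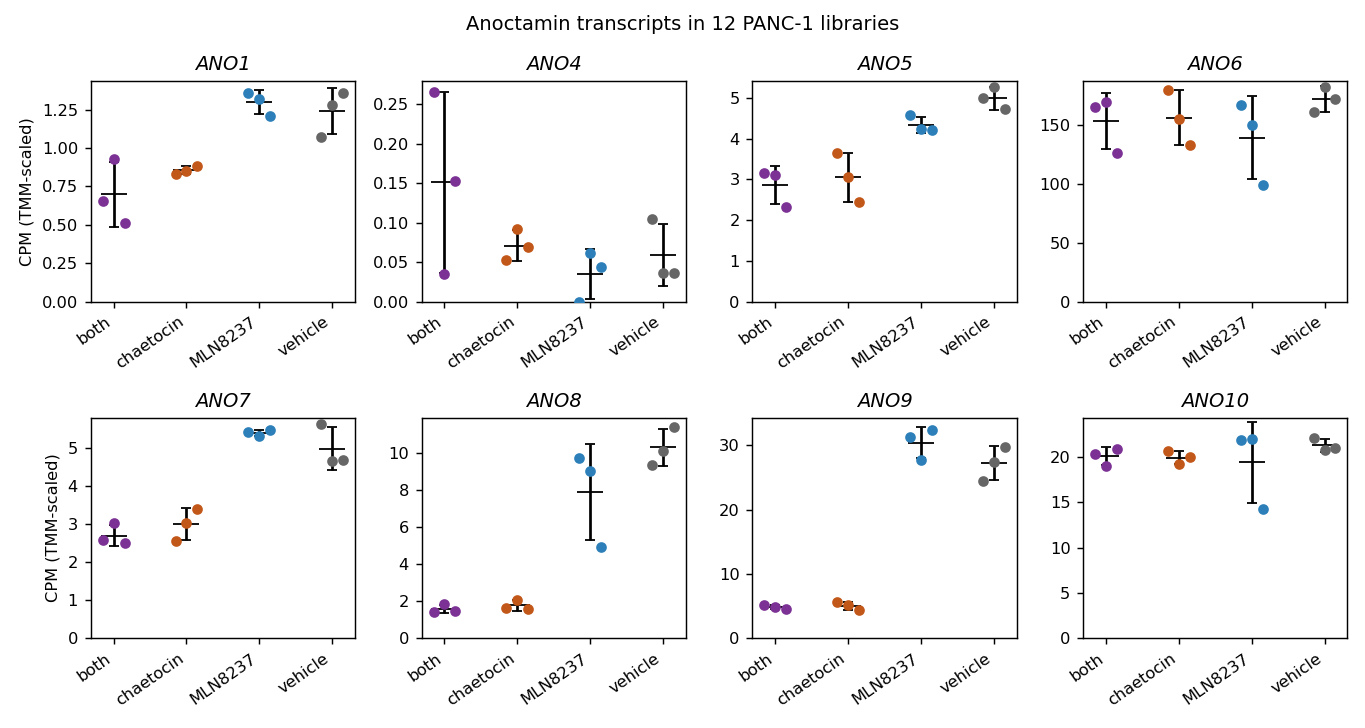
TMM-scaled CPM of the 8 anoctamin genes by treatment, 1 point per library, with the mean (wide tick) and SD (n = 3) in black; each panel has its own axis from 0. ANO8 and ANO9 lie at or below 2.09 and 5.62 CPM with chaetocin, alone or with MLN8237, and ANO6, ANO8 and ANO10 have their lowest MLN8237 point in replicate 3.

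The comparison that chose the family gave a log2 fold change of -2.53 ± 0.235 (SE of the fit) for ANO8 and -2.43 ± 0.121 for ANO9, chaetocin against vehicle. Both compounds against MLN8237 asked the same of cells that also received the Aurora A inhibitor, in 6 libraries apart from those of that comparison. The family was nevertheless chosen with earlier results of all 4 groups in view, so the tests of ANO8 and ANO9 here are not independent of the choice. In these libraries, 5 of the 7 members tested fell and 0 rose. The family gene ANO2, outside the members, went the other way, with 162, 53 and 143 counts against 0 in each MLN8237 library. The background was high: 45.9% of 22831 genes passed in this comparison, 22.7% as lower and 23.3% as higher. The median log2 fold change was -0.90 over the 7 members and 0.03 over all genes tested. The count of 5 and this median include ANO8 and ANO9, so they are not independent of the choice either. ANO9 dropped by 2.64 ± 0.122 on the log2 scale, a level 6.25-fold lower (95% interval of the log2 fold change -2.91 to -2.38, edgeR adjusted p = 1.90e-07). ANO8 dropped by 2.33 ± 0.236, which is 5.01-fold lower (95% interval -2.84 to -1.82, edgeR adjusted p = 1.59e-05). The spread behind these p-values came from all 12 libraries, those that chose the family included. With the groups compared fitted alone, the edgeR adjusted p was 0.00032 for ANO9 and 0.00134 for ANO8.

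**Figure D3:**
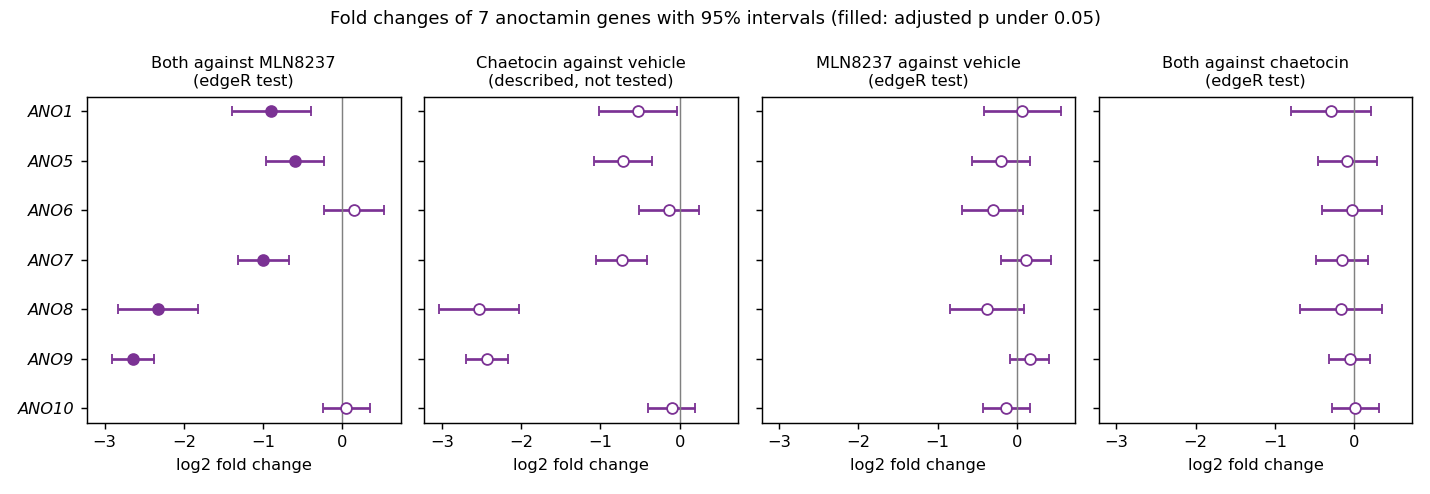
Log2 fold changes of the 7 tested anoctamin genes in 4 comparisons, with 95% intervals; filled points passed at an adjusted p under 0.05, and chaetocin against vehicle is shown with no test. ANO8 and ANO9 lie between -2.64 and -2.33 in both comparisons that differ by chaetocin, whereas no member passed in those that differ by MLN8237.

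ANO1, ANO5 and ANO7 were lower by smaller amounts. ANO7 (ENSG00000146205, hg19 chromosome 2, 242127924 to 242164792), known as a prostate-enriched transcript, stood at 2.58, 3.03 and 2.5 CPM with both compounds, against 5.42, 5.31 and 5.47 CPM with MLN8237. It fell, with a log2 fold change of -0.998 ± 0.15 (95% interval -1.32 to -0.67, edgeR adjusted p = 0.000225). ANO5 (ENSG00000171714, hg19 chromosome 11, 22214722 to 22304903), whose mutations cause a limb-girdle muscular dystrophy, stood at 3.16, 3.11 and 2.33 CPM with both compounds, against 4.58, 4.23 and 4.21 CPM with MLN8237. It fell by 0.60 ± 0.171 (95% interval -0.97 to -0.23, edgeR adjusted p = 0.0121). ANO1 (ENSG00000131620, hg19 chromosome 11, 69924408 to 70035634), the calcium-activated chloride channel, rested on few reads, with 42, 53 and 30 counts with both compounds against 74, 64 and 55 counts with MLN8237. These are 0.654, 0.927 and 0.51 CPM against 1.36, 1.32 and 1.21 CPM. ANO1 fell by 0.90 ± 0.232 (95% interval -1.40 to -0.40, edgeR adjusted p = 0.00709). For none of the 3 genes did the 2 groups overlap, which held for 24.5% of all tested genes in the lower direction. Chaetocin against vehicle gave log2 fold changes of -0.73 ± 0.149 for ANO7, -0.71 ± 0.17 for ANO5 and -0.53 ± 0.228 for ANO1, again without overlap, which held for 23.9% of all genes in the lower direction. ANO10, at only -0.10 ± 0.137, did not overlap between those groups either. In that comparison 24.5% of genes passed, 11.9% as lower and 12.6% as higher. Both compounds against vehicle, also given with no test, had log2 fold changes of -2.70 for ANO8, -2.49 for ANO9, -0.88 for ANO7, -0.83 for ANO1 and -0.80 for ANO5, where 38.5% of genes passed, 18.3% as lower and 20.1% as higher. In it 27.4% of genes were lower without overlap. Since these percentages come from the vehicle libraries that chose the family, they lend the members no support.

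Start-site windows from RefSeq (GRCh38.p14, 250 bases before to 50 after an annotated start) matched 6 of the 8 members, all but ANO8 and ANO9, with 8 windows in all. Those of ANO7 (chr2:241188427-241188726, plus strand) and ANO5 (chr11:22192356-22192655, plus strand) are shown as examples of members that fell, and 1 of 2 for ANO10 (chr3:43621962-43622261, minus strand) as an example of a member that did not pass. Sequences run 5′ to 3′ on the gene's strand, and capitals mark the GC box GGGCGG on either strand.
ANO7: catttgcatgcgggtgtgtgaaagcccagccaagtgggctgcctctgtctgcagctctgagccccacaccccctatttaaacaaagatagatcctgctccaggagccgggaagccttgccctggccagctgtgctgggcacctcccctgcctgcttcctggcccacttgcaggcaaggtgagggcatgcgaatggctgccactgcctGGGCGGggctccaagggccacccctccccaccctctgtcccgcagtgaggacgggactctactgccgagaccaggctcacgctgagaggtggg
ANO5: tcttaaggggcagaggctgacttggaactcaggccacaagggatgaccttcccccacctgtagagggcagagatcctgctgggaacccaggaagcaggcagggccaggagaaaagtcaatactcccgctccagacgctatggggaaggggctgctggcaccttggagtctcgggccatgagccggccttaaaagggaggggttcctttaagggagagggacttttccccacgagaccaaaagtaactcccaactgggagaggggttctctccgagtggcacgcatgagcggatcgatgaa
ANO10: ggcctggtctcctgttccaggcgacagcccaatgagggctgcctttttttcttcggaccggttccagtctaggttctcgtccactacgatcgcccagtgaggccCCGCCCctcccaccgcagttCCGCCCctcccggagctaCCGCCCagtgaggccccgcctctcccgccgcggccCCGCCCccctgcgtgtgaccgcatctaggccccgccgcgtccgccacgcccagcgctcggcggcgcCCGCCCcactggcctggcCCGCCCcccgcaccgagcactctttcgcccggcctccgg
The ANO7 window held 1 GC box, the ANO5 window 0 and the ANO10 window 6, and 45% of 35116 windows of this length held at least 1. CpG dinucleotides numbered 8, 9 and 34 in the same order, against a median of 14 over all windows. The windows not printed did not keep to this split. That of ANO1, which fell, held 4 GC boxes and 36 CpG dinucleotides, while that of ANO6, which did not pass, held 0 GC boxes, 2 CpG dinucleotides and 1 TATAAA, and the other ANO10 window held 2 GC boxes and 15 CpG dinucleotides. On either strand, TATAAA (in 11.5% of all windows), CACGTG (7.26%) and TGANTCA (7.71%) were in none of the 3 windows printed, and CCAAT (34.6%) was once in that of ANO10. The windows were matched by gene symbol, and whether they lie at the starts of the counted hg19 genes was not checked. Which start sites these cells used was not measured.

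ANO6 and ANO10 did not pass. ANO6 (ENSG00000177119, hg19 chromosome 12, 45609770 to 45834187), the calcium-activated phospholipid scramblase whose loss causes the bleeding disorder Scott syndrome, stood at 165, 169 and 126 CPM with both compounds, at 180, 155 and 133 CPM with chaetocin, at 167, 150 and 99.2 CPM with MLN8237, and at 161, 182 and 172 CPM in vehicle. The third library was the lowest of each treated group. Both compounds against MLN8237 gave a log2 fold change of 0.14 (95% interval -0.24 to 0.52, edgeR adjusted p = 0.527), and -0.06 without MLN8237 replicate 3. ANO10 (ENSG00000160746, hg19 chromosome 3, 43396351 to 43733086), mutated in a recessive spinocerebellar ataxia, stood at 20.3, 19 and 20.9 CPM with both compounds, at 20.6, 19.2 and 20 CPM with chaetocin, at 21.9, 22 and 14.3 CPM with MLN8237, and at 22.1, 20.8 and 21 CPM in vehicle. All but MLN8237 replicate 3 lay within 19 to 22.1 CPM. Its log2 fold change, both compounds against MLN8237, was 0.05 (95% interval -0.25 to 0.34, edgeR adjusted p = 0.796), and -0.14 without that library. ANO4 (ENSG00000151572, hg19 chromosome 12, 101111304 to 101522419), an anoctamin best known from the nervous system, had 17, 2 and 9 counts with both compounds, 3, 6 and 4 counts with chaetocin, 0, 3 and 2 counts with MLN8237, and 5, 2 and 2 counts in vehicle. The groups overlapped at this depth and no fold change was computed.

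Some members share ground with other genes, and no source used here gives the strand setting of the read counting. ANO10 overlaps SNRK by 69906 bases and ABHD5 by 1482 bases, both on the opposite strand in GENCODE 29 and averaging 740 and 748 counts. ANO8 overlaps the opposite-strand DDA1 by 79 bases, ANO1 overlaps ANO1-AS1 by 722 bases and ANO6 overlaps the pseudogene PLEKHA8P1 by 55 bases. DDA1 averaged 2530 counts per library. ANO9 overlaps only RN7SL838P, with a mean of 3.92 counts, and ANO7 overlaps no gene of the table.

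MLN8237 moved no member past the test, whether added to vehicle or to chaetocin. Against vehicle, 0 of 7 members passed with edgeR, and 0 had an unadjusted p under 0.05. Of all 22831 genes tested, 1938 had such an unadjusted p. DESeq2 and limma-voom also called 0 members, and in this comparison 0.00438% of all genes passed with edgeR, which is 1 gene. These values share the vehicle libraries with the comparison that chose the family. The log2 fold change of ANO9 was 0.16 (95% interval -0.08 to 0.40, edgeR adjusted p = 0.534). That of ANO8 was -0.38 (95% interval -0.85 to 0.09, edgeR adjusted p = 0.516), and -0.13 without MLN8237 replicate 3. For ANO5, with 4.58, 4.23 and 4.21 CPM under MLN8237 against 4.99, 5.27 and 4.72 CPM in vehicle, the groups did not overlap, but its log2 fold change of -0.20 did not pass (95% interval -0.57 to 0.16, edgeR adjusted p = 0.582). Such lack of overlap in the lower direction held for 7.06% of all genes. Both compounds against chaetocin, which shares the chaetocin libraries with that choice, likewise gave 0 of 7 members with edgeR, DESeq2 and limma-voom, and 0 with an unadjusted p under 0.05. Over all genes 0% passed with edgeR there, 299 genes passed with DESeq2 and 1 with limma-voom. An unadjusted edgeR p under 0.05 was found for 2677 genes. The interval of ANO9 was -0.32 to 0.20 around -0.06, and that of ANO8 -0.69 to 0.35 around -0.17. All 7 members overlapped between these groups, beside 9.15% of genes that were lower without overlap. The widest shift was in ANO1, at 0.654, 0.927 and 0.51 CPM with both compounds against 0.833, 0.853 and 0.883 CPM with chaetocin, a log2 fold change of -0.30 (95% interval -0.80 to 0.21, edgeR adjusted p = 0.652).

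Genes beside ANO8 and ANO9 were measured in the same comparison of both compounds with MLN8237. Of 9 tested genes within 50 kb of ANO8, 6 fell, 0 rose and 3 did not pass, beside the 22.7% of all genes that fell. The 6 are not separate stretches, since BABAM1 overlaps CTD-2278I10.6, ABHD8 overlaps MRPL34 and DDA1 overlaps ABHD8. Reads of 1 may count for the other. Their log2 fold changes in chaetocin against vehicle, given with no test, were smaller. BABAM1 at -0.21, CTD-2278I10.6 at -0.19 and DDA1 at -0.05 overlapped between those groups. ABHD8 at -0.29, MRPL34 at -0.45 and GTPBP3 at -0.78 did not. ABHD8 averaged 12.4 CPM with both compounds, 15.2 CPM with MLN8237 and 12.3 CPM in vehicle. GTPBP3, which encodes a mitochondrial tRNA-modifying enzyme, begins 90 bases from the start of ANO8 and is transcribed the other way in GENCODE 29. It stood at 7.19, 11 and 8.06 CPM with both compounds, at 13.8, 13.9 and 14.4 CPM with chaetocin, at 24.7, 23.6 and 23.8 CPM with MLN8237, and at 25.7, 23.1 and 23.3 CPM in vehicle. GTPBP3 thus lay lower in all 6 libraries with chaetocin, and lowest with both compounds. It fell by 1.46 ± 0.133 on the log2 scale against MLN8237 (edgeR adjusted p = 7.81e-06), while both compounds against chaetocin gave -0.68 ± 0.132, which did not pass (edgeR adjusted p = 0.182). DDA1, on the other side of ANO8, fell by 0.27 ± 0.0996 (edgeR adjusted p = 0.0379), a call lost without combination replicate 1 (adjusted p = 0.151) or 2 (0.0624) or MLN8237 replicate 3 (0.0807), while ABHD8 lost its call without any 1 of the 3 combination libraries or MLN8237 replicates 2 and 3, and BABAM1 without combination replicate 1. Of 5 tested genes within 50 kb of ANO9, 2 fell, 1 rose and 2 did not pass. Of all genes 45.9% passed, 22.7% as lower and 23.3% as higher. SIGIRR, an inhibitor of interleukin-1 receptor signalling, fell by 1.02 ± 0.149 to 30.5 ± 3.68 CPM with both compounds, against 61.9 ± 12.3 CPM with MLN8237 (edgeR adjusted p = 0.000193), and begins 477 bases past the end of ANO9. PTDSS2, a phosphatidylserine synthase gene on the other side, fell by 0.44 ± 0.0909 (edgeR adjusted p = 0.00182). B4GALNT4, a glycosyltransferase gene, rose by 0.57 ± 0.0914 (edgeR adjusted p = 0.000337). PKP3, a desmosomal plakophilin gene, had a log2 fold change of 0.18 (edgeR adjusted p = 0.273) and passed without MLN8237 replicate 3 at 0.32 (edgeR adjusted p = 0.0275). In chaetocin against vehicle, given with no test, SIGIRR was at -0.42, PTDSS2 at -0.19, B4GALNT4 at 0.99 and PKP3 at 0.42. These genes did not overlap between those groups, while RP13-317D12.3 at 0.24 did. Over all genes 23.9% were lower without overlap there. SIGIRR averaged 50.6 CPM in vehicle and reached 75.7 CPM in MLN8237 replicate 3.

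**Figure D4:**
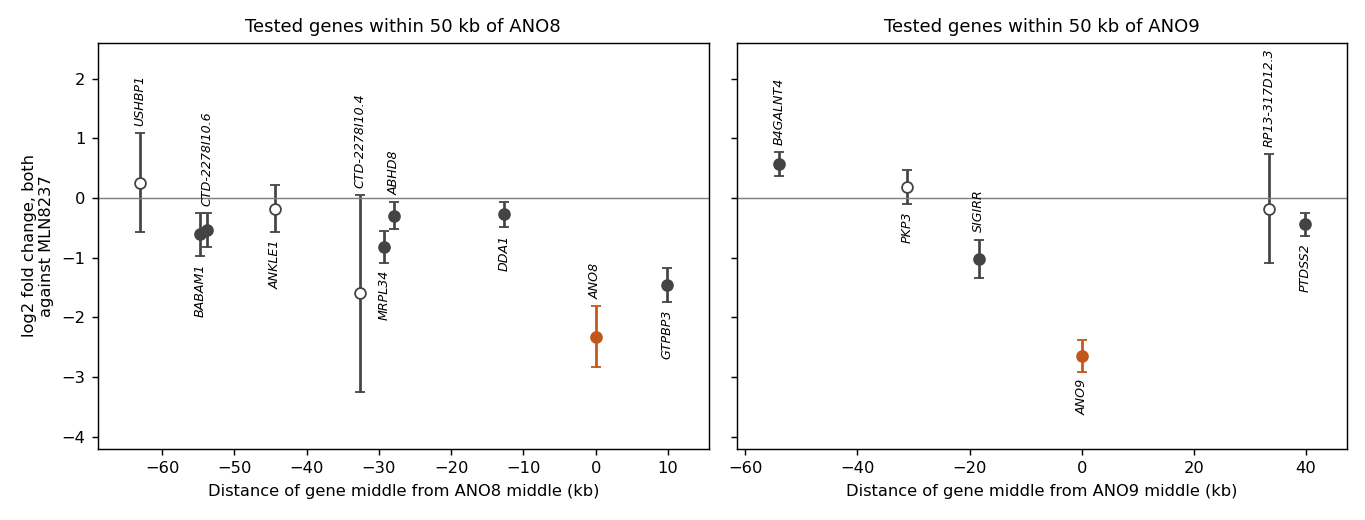
Log2 fold change with 95% interval, both compounds against MLN8237, of each tested gene within 50 kb of ANO8 (left) and ANO9 (right), by the distance in kb between gene middles; filled points passed at an adjusted p under 0.05 and the anoctamins are orange. ANO8 lies at -2.33 next to GTPBP3 at -1.46, and ANO9 at -2.64 next to SIGIRR at -1.02.

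The genes whose pattern over the 12 libraries was most like that of ANO9 or ANO8 were sought among 12586 genes with a mean of at least 5 CPM, by the Pearson correlation of log2 CPM. All these points share the split by chaetocin, so the values are a description. For ANO9 the closest were LIPG, an endothelial-type lipase (r = 0.995), PLAU, the protease urokinase (r = 0.995), the syndecan SDC4 (r = 0.994), DACT2 (r = 0.991) and the protocadherin PCDHAC2 (r = 0.991). PLAU stood at 152 CPM with both compounds against 548 CPM with MLN8237, a change of -1.85 on the log2 scale. For ANO8 they included CLIP2, a microtubule linker (r = 0.991), the collagen lysyl hydroxylase PLOD1 (r = 0.99), C10orf55 (r = 0.989), which lies on the strand opposite PLAU and whose counts may hold reads of PLAU, and TAPBP, a loading factor for MHC class I (r = 0.988). Both anoctamins had a larger fold change than any of the genes named here, which ran from -1.85 for PLAU to -0.53 for PLOD1. ANO8 and ANO9 correlated with each other at r = 0.958.

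Other genes of related families or of the same membrane work were counted in lists, both compounds against MLN8237. Of 10 tested TMC and TMEM63 genes, the closest relatives of anoctamins in structure, 4 rose and 4 fell, a share of 80% beside 45.9% of all genes (median log2 fold change 0.12). TMC5 rose by 2.04 ± 0.191 to 15.7, 10.1 and 15.2 CPM, against 3.07, 3.43 and 3.45 CPM with MLN8237 (edgeR adjusted p = 9.20e-06). TMEM63B, a mechanosensitive channel gene, fell by 0.53 ± 0.076 (edgeR adjusted p = 0.000168). Only 2 of these genes fell without combination replicate 1. Of 12 other scramblase genes 3 rose and 3 fell (50%, median 0.26), with 1 falling without combination replicate 3 or MLN8237 replicate 2. XKR9, of the caspase-activated scramblases, rose by 1.27 ± 0.147 to 10.1 ± 1.17 CPM with both compounds, against 4.21 ± 0.386 CPM with MLN8237 (edgeR adjusted p = 4.04e-05). Of 13 lipid flippase genes, which act against scrambling, 2 rose and 1 fell (23.1%, median 0.06); 3 fell without MLN8237 replicate 3, and 1 rose without that library, combination replicate 1 or 2, or MLN8237 replicate 2. TMEM30A, the chaperone subunit of most flippases, fell by 0.44 ± 0.113 (edgeR adjusted p = 0.00704), and ATP8B4 had 119, 49 and 93 counts with both compounds against 0, 1 and 0 counts with MLN8237.

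Of 21 other chloride channel genes 10 rose and 2 fell, a share of 57.1% (median 0.30). Of all genes 45.9% passed, 23.3% as higher and 22.7% as lower. With an absolute log2 fold change of at least 1 also asked for, 4 of the chloride channel genes rose and 1 fell. BEST3, a bestrophin, rose by 2.17 ± 0.271 to 5.96, 3.36 and 6.26 CPM, against 1.12, 1.03 and 1.32 CPM with MLN8237 (edgeR adjusted p = 6.54e-05). CLCN2 rose by 0.99 ± 0.125 (edgeR adjusted p = 7.22e-05). TTYH2, of the tweety family, fell by 1.39 ± 0.148 to 2.57 ± 0.425 CPM, against 6.74 ± 0.334 CPM (edgeR adjusted p = 2.18e-05). Of 21 genes of calcium release and entry, which supply the signal that opens ANO1, 3 rose and 6 fell (42.9%, median -0.07), with 1 rising without combination replicate 1. The channel subunit gene ORAI3 fell by 0.77 ± 0.143 (edgeR adjusted p = 0.000894) and the epithelial calcium channel gene TRPV6, with 6, 9 and 16 counts against 41, 34 and 59 counts with MLN8237, fell by 2.39 ± 0.451 (edgeR adjusted p = 0.00106). Over all genes tested the median in this comparison was 0.03.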

How the data were processed

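RNA was sequenced from 12 PANC-1 libraries. The authors deposited raw counts per Ensembl gene and RPKM values, scaled to gene length and a library total, per the file headers. The submitters' processing notes name CASAVA 1.9, TopHat 12.0.6 (as written there), HTSeq and hg19, without roles. RPKM was used, with no test, for levels set side by side between genes, for the share of ANO6 and for the marker sums by group. Testing used the unchanged counts and edgeR 4.0.16 (R 4.3.3), with the default expression filter by group (22831 genes), TMM scaling, 4 group means over 12 libraries, robust quasi-likelihood F test, Benjamini-Hochberg adjustment over all tested genes and calls at an adjusted p under 0.05. The edgeR code was run on simulated counts with few changed genes and with the spread estimated from these data. That run does not show how the test behaves where many genes differ, as here. Alternatives were RLE scaling, no filter, a stricter filter (1 CPM in 6 libraries), DESeq2 1.42.0, limma-voom (limma 3.58.1), fits of the groups compared, a replicate block, an added log2 fold change of at least 1, and libraries left out. Replicates differed by more than counting error in every group (chi-square 5.353 to 113.8 a gene). Named were all members, overlapping genes, tested genes within 50 kb of ANO8 and ANO9, the 5 genes most correlated with each, and up to 3 called genes per list with the smallest adjusted p, some of which are not reported here. Members and lists were chosen with earlier results of these data known.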

Additional observations from a re-analysis of the deposited data

Results flagged for a closer look

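ANO2, a calcium-activated chloride channel gene of olfactory neurons and photoreceptors, is a family gene outside the rule that was singled out after its values were seen, because reads appeared where the libraries without chaetocin had none. It had 162, 53 and 143 counts with both compounds and 51, 65 and 63 with chaetocin, against 0 counts in each of the 3 MLN8237 and the 3 vehicle libraries. Its mean was 1.96 ± 0.896 CPM with both compounds and 0.989 ± 0.103 CPM with chaetocin (SD, n = 3 each). Set against 3 counts summed over the group at 0, a floor that covers counting error only, this was at least 96.9-fold higher with both compounds than with MLN8237, and at least 52.2-fold higher with chaetocin than in vehicle. The hg19 gene body (chromosome 12, 5641035 to 6055398) begins 2641 bases past the end of VWF, which lies on the same strand in GENCODE 29 and is transcribed towards ANO2. VWF had 247, 68 and 240 counts with both compounds, 68, 98 and 89 with chaetocin, 0, 4 and 0 with MLN8237 and 0 in every vehicle library. ANO2 counts were 59.6% to 77.9% of VWF counts in the 6 libraries with chaetocin. The endothelial marker CDH5 was at most 0.0231 RPKM in any library. The part of the neighbouring VWF signal in the ANO2 counts was not tested. ANO3, also outside the rule, had 2 counts in chaetocin replicate 2 and 0 elsewhere.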

How the results depend on the processing

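ANO1, ANO5, ANO7, ANO8 and ANO9 passed in both compounds against MLN8237 under each alternative but 1: with an added log2 fold change of at least 1 only ANO8 and ANO9 did, 2 members. ANO5 came nearest to the threshold (adjusted p 0.0028 to 0.0495 over its alternatives) and ANO1 next (0.00167 to 0.0463). Over left-out libraries the log2 fold change of ANO8 ran from -2.59 to -2.16 and that of ANO9 from -2.71 to -2.59, and 5 members passed each time. No alternative gave a member a call in the comparisons that differ by MLN8237.

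Counts over all genes moved more. With the added fold change 3846 genes passed in both compounds against MLN8237, 1989 in chaetocin against vehicle and 3406 in both against vehicle. Leaving out libraries gave 7659 to 10542, 3704 (without vehicle replicate 2) to 4705, and 6564 to 9095 genes in the same order. For MLN8237 against vehicle the count was 0 with the stricter filter or with the groups compared alone, and 0 to 1 over left-out libraries. Both compounds against chaetocin gave 36 genes with no filter, 299 with DESeq2, 1 with limma-voom, and 0 to 573 over left-out libraries, the highest without combination replicate 2. With no filter the median log2 fold change of all genes, both compounds against MLN8237, was 0.15 against 0.03.

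Some values that did not pass changed sign, and the cause was not tested. For ANO10, leaving out the 3 treated libraries numbered 3 gave -0.1484 in both compounds against MLN8237, 0.0451 in MLN8237 against vehicle and -0.0116 in both against chaetocin, where no filter gave -0.0155. In both against chaetocin, ANO6 gave 0.0032 with the stricter filter and ANO7 0.0005 without those 3 libraries. Over single left-out libraries, both compounds against MLN8237 ran from -0.0603 (without MLN8237 replicate 3) to 0.2901 for ANO6, from -0.1423 (without the same library) to 0.1481 for ANO10 and from -0.3772 to 0.0918 (without combination replicate 1) for RP13-317D12.3. MLN8237 against vehicle ran from -0.0259 to 0.1384 for ANO1 and from -0.2377 to 0.0435 for ANO10. Both against chaetocin ran from -0.2277 to 0.0528 for ANO5, from -0.1361 to 0.0952 for ANO6, from -0.1496 to 0.0150 for ANO9 and from -0.0255 to 0.0424 for ANO10.

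The replicate block left 5 members called in both compounds against MLN8237, where it gave 11768 genes, and 0 in MLN8237 against vehicle and in both against chaetocin. Same-numbered libraries of these groups deviated together with correlations of 0.318, 0.0930 and 0.436, each the best match of its number. In both against chaetocin these were 0.167, -0.0070 and 0.462. The labels tie no number to a shared culture or day, so this is a hint from the data and not a pairing by design. Few reads limit ANO1 (30 to 76 counts per library) and ANO4 (0 to 17).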
